A study of Mus musculus with 2 samples.

Results

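The transcription factors Hnf4a, Hnf4g, Pax2, Pax8, Ppara, Nr1h4, Maf and Esrrg were examined in single cells of post-ischemic mouse kidney. They were chosen by symbol, as factors known for setting the identity of nephron segments, and each of the 8 matched exactly 1 of the 32285 genes in the deposited count tables. The choice was made with earlier results of these data known, so counts of these factors beside the share of all genes only describe them. Both kidneys came from male C57BL/6 mice aged 9 weeks that underwent bilateral renal ischemia-reperfusion injury (IRI), and both were taken 24 h after surgery. One mouse received saline (control) and one received JPI-289, an inhibitor of poly(ADP-ribose) polymerase, at 100 mg/kg, in each case into the peritoneal cavity just before reperfusion. There was 1 library per condition and no sham kidney, so no test between the conditions could be made. Every interval below is a 95% interval for counting error only and does not cover the difference between 2 mice.

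HNF4A and HNF4G are nuclear receptors that bind DNA as dimers and switch on the transport and metabolic genes of the proximal tubule (PT), the segment that reabsorbs most of the filtered solutes and burns fatty acids to do so. PPARA, NR1H4 (the bile acid receptor FXR) and ESRRG belong to the same receptor superfamily and govern fatty acid oxidation, bile acid handling and mitochondrial genes, while MAF is a leucine zipper factor found in PT cells and in macrophages. PAX2 and PAX8 are paired box factors that build the nephron in the embryo, stay on in the adult tubule and are known to rise again in injured tubules.

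Cells were called from the raw barcodes and grouped into clusters, with the 8 genes left out of the clustering, and a cluster was named "X-like" from marker genes of each kidney cell type. This left 3753 control and 5041 JPI-289 cells, of which 1794 and 1651 were PT-like. Both libraries were clustered together with no batch correction. The 7 PT-like clusters hardly mixed: none drew more than 5.78% of its cells from the other library. Within PT-like cells, 9 of 13 PT markers were at least 2-fold lower in the JPI-289 library and their summed level was 19189 against 5641 CPM, which are UMIs (counted RNA molecules) per 1000000 UMIs of the class. The injury markers, such as Havcr1 and Krt20, were at least 2-fold higher for 4 of 8, with a summed level of 8673 CPM in the control and 13333 CPM in the JPI-289 library. Of the 4 neutrophil markers with at least 20 UMIs in PT-like cells, 3 were at least 2-fold higher and 1 at least 2-fold lower, with a summed level for the list of 263 and 106 CPM. The macrophage markers summed to 31.0 and 12.3 CPM, and all 9 lymphocyte markers were at 0 in both. Markers of other tubule segments also differed, with sums of 154 and 28.3 CPM for the thick ascending limb, 97.5 and 18.5 for the thin limb and 70.4 and 21.9 for principal cells. Endothelial markers summed to 58.7 and 18.4 CPM and mural markers to 54.2 and 10.4 CPM. The distal tubule (DCT/CNT) list was even, at 620 and 621 CPM, and red blood cell markers went up, from 110 to 142 CPM. Median depth per PT-like cell was 2254 and 1851 UMIs and the median mitochondrial share was 3.65% and 4.25%. The part of these markers, of depth and of the separate clusters in the values below was not tested.

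On the GRCm38 build (GENCODE vM21), Hnf4a (ENSMUSG00000017950) lies on chromosome 2 from 163506808 to 163572910 and Pax8 (ENSMUSG00000026976) on chromosome 2 from 24420560 to 24475599. Hnf4g (ENSMUSG00000017688) lies on chromosome 3 from 3508030 to 3658052, Pax2 (ENSMUSG00000004231) on chromosome 19 from 44756045 to 44837871 and Ppara (ENSMUSG00000022383) on chromosome 15 from 85734983 to 85802819. Nr1h4 (ENSMUSG00000047638) spans chromosome 10 from 89454234 to 89533585, Maf (ENSMUSG00000055435) chromosome 8 from 115682942 to 115707794 and Esrrg (ENSMUSG00000026610) chromosome 1 from 187608791 to 188214885. For 4 of them, the span of a gene listed in the tables on the opposite strand overlaps an exon. These are Hnf4aos for Hnf4a, 1700039E22Rik for Pax2, Gm13415 for Pax8 and Gm15655 for Maf. Whether exons of both genes overlap was not examined. How strand entered the counting is not given in the sources used here, so the split of reads between such pairs is uncertain.

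The list of RefSeq promoters used here held 12 transcription starts for 6 of the 8 genes (GRCm38.p6) and no entry for Hnf4g and Maf. The 200 bases before each start were searched on both strands for an HNF4 core (CAAAGTCCA), a nuclear receptor half-site (AGGTCA), an HNF1 half-site (GTTAAT) and a Maf half-site (TGCTGA). These letters occurred in 0.317%, 11.4%, 5.06% and 13.2% of all 32851 listed promoters of that length. The 3 starts with a match are shown, whatever the direction of their gene. They belong to Hnf4a and Nr1h4, which were lower after JPI-289, and to Pax8, which was higher. No start listed for Ppara and Esrrg, which were also lower, or for Pax2 had a match. Capitals mark the match, and each sequence runs 5′ to 3′ on the strand of its gene.
Hnf4a, chr2:163546955-163547154, plus strand: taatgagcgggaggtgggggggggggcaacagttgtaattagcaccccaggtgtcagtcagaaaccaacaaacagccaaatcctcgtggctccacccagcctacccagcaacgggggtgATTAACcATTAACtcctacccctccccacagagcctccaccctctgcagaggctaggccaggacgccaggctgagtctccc
Nr1h4, chr10:89506659-89506858, minus strand: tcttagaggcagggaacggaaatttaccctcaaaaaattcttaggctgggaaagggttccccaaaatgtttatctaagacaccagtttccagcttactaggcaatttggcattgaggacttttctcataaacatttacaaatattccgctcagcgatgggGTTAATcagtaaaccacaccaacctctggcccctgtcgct
Pax8, chr2:24475600-24475799, minus strand: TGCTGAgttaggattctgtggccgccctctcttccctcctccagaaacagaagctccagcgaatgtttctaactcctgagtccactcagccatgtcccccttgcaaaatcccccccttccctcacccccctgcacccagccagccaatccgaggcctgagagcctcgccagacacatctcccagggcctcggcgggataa
The Hnf4a start carried the HNF1 half-site on the minus strand at positions -81 and -74, counted back from the start, and the Nr1h4 start carried it on the plus strand at -40. The Maf half-site of Pax8 stood at -200. A match of letters is a description and not a binding site, and which start the cells used was not examined.

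In PT-like cells, 6 of the 8 factors were at least 2-fold lower in the JPI-289 library, and none was at least 2-fold higher. Over all 11308 genes with at least 20 UMIs in this class, 23.7% were at least 2-fold lower and 9.11% at least 2-fold higher, with a median log2 ratio of -0.20. The factors below that line were Hnf4a, Hnf4g, Ppara, Nr1h4, Maf and Esrrg. Pax2 lay near the median of all genes, and Pax8 stood alone above it.

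Hnf4a, which drives the PT program, had 1474 UMIs in control PT-like cells and 387 in JPI-289 PT-like cells. Its level was 182 CPM (interval 172 to 191) in the control and 52.7 CPM (47.6 to 58.2) after JPI-289. The intervals were far apart, and the log2 ratio was -1.78 (-1.95 to -1.62), or 3.44-fold lower. Its close relative Hnf4g was scarce, with 98 UMIs in the control and 5 after JPI-289. Its level was 12.1 against 0.681 CPM and its log2 ratio -4.02, with a wide interval of -5.80 to -2.88 on these few molecules. Of its control UMIs, 53 came from a single cluster, and without that cluster its interval overlapped that of Hnf4a.

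Ppara, the fatty acid sensor that switches on peroxisomal and mitochondrial oxidation, had 1002 UMIs in the control and 338 after JPI-289. Its level was 123 against 46.0 CPM, with a log2 ratio of -1.42 (-1.60 to -1.24). Nr1h4 had 1644 and 339 UMIs, or 202 against 46.2 CPM. That was 4.38-fold lower, with a log2 ratio of -2.13 (-2.31 to -1.96). Esrrg, a regulator of mitochondrial genes, showed the second lowest ratio of the 8, with 251 UMIs in the control and 25 after JPI-289. Its level was 30.9 against 3.41 CPM and its log2 ratio -3.16 (-3.84 to -2.59). Maf had 1300 and 422 UMIs, or 160 against 57.5 CPM, with a log2 ratio of -1.48 (-1.64 to -1.32).

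The paired box genes did not share this pattern. Pax2 had 207 UMIs in control PT-like cells and 156 after JPI-289, at 25.5 and 21.3 CPM. Its log2 ratio of -0.26 had an interval that reached over 0 (-0.57 to 0.044), so no difference in either direction was detectable at this depth. Pax8 had 638 UMIs in the control and 1070 after JPI-289. Its level was 78.6 CPM (72.6 to 84.9) in the control and 146 CPM (137 to 155) after JPI-289, so the higher value belonged to JPI-289 with intervals apart. The log2 ratio was 0.89 (0.75 to 1.04), or 1.85-fold higher.

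**Figure D1:**
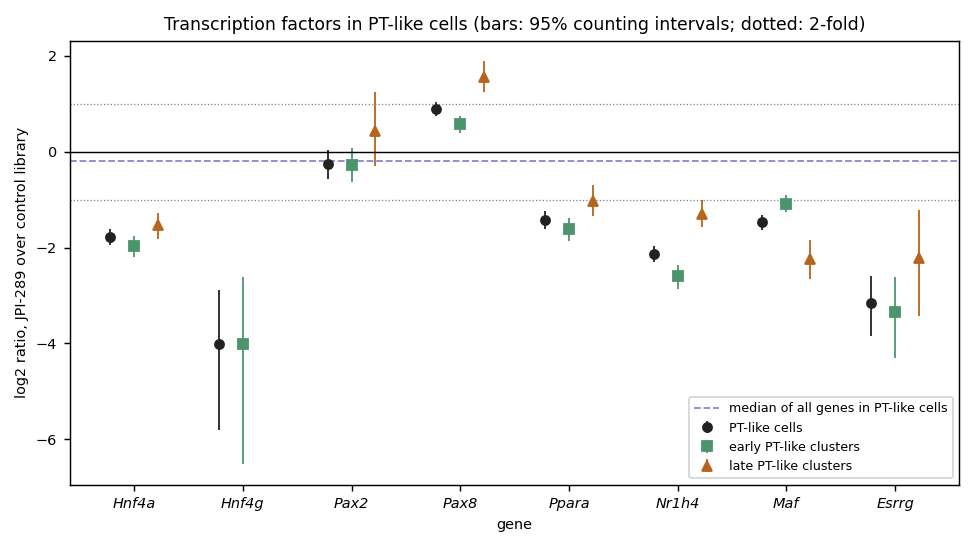
Log2 ratio of each factor, JPI-289 over control library, in all PT-like cells (circles), in early PT-like clusters (squares) and in late PT-like clusters (triangles), with 95% counting intervals (Hnf4g in late clusters, under 20 UMIs, is not drawn). The points for Hnf4a, Hnf4g, Ppara, Nr1h4, Maf and Esrrg all lie below the 2-fold line at -1, and those for Pax8 lie between 0.57 and 1.56.

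The control PT-like cells were mostly of early clusters (1630 of 1794), whereas 388 of the 1651 JPI-289 PT-like cells were of late clusters, named from a marker list of the last PT segment. The ratios were therefore taken within each, where the median of all genes differed, at -0.28 in early and 0.14 in late clusters. Hnf4a was lower in both, with a log2 ratio of -1.98 (-2.20 to -1.76) in early and -1.54 (-1.81 to -1.27) in late clusters, and relative to those medians it stood at -1.69 and -1.68. Nr1h4 was further down in early clusters, at -2.60 (-2.85 to -2.36), than in late ones, at -1.29 (-1.58 to -1.01), or -2.31 and -1.44 relative to the medians. Maf went the other way, at -1.08 (-1.26 to -0.91) in early and -2.23 (-2.65 to -1.84) in late clusters, and relative to the medians it stood at -0.80, within 2-fold, and -2.38. For Ppara the ratio was -1.62 (-1.86 to -1.39) in early and -1.02 (-1.34 to -0.70) in late clusters, but relative to the medians it stood at -1.33 and -1.16. For Esrrg it was -3.35 (-4.30 to -2.62) and -2.22 (-3.42 to -1.21), with intervals that overlapped. In late clusters Esrrg rested on 28 control and 11 JPI-289 UMIs.

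Pax8 was higher after JPI-289 in both segments, but unevenly. In early clusters it went from 83.2 to 124 CPM, with a log2 ratio of 0.57 (0.40 to 0.75). In late clusters it went from 59.9 to 177 CPM, with a log2 ratio of 1.56 (1.25 to 1.89). Relative to the medians the ratios were 0.86 and 1.41. Of the 542 control UMIs in early clusters, 198 came from 1 cluster, cluster 14 (described below), where Pax8 stood at 261 CPM. The other early clusters made mostly of control cells, 2 and 4, stood at 68.3 and 55.6 CPM. The part of cluster 14 in the difference between the segments was not tested. Pax2 had intervals over 0 in both segments, with ratios of -0.27 and 0.43.

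Cluster by cluster, the levels of the 6 lower factors kept their direction in every pair of PT-like clusters, although for Hnf4g and Maf some counting intervals overlapped. All these clusters came from the same libraries, so the pairs are not independent comparisons. Hnf4a lay between 172 and 203 CPM in the 4 clusters made mostly of control cells (numbered 2, 4, 14 and 18), and between 45.9 and 62.0 CPM in the 3 made mostly of JPI-289 cells (0, 8 and 9). Maf had the smallest gap as a ratio, since its lowest control cluster stood at 113 CPM and its highest JPI-289 cluster at 91.0 CPM. The interval of that JPI-289 cluster, 8 (80.5 to 102), overlapped those of control clusters 2 (98.3 to 130) and 18 (99.1 to 133). Ppara, Nr1h4 and Esrrg showed no overlap of intervals between the control and the JPI-289 clusters. For Hnf4g the levels did not overlap, but the interval of control cluster 2 (2.66 to 10.2) overlapped those of JPI-289 clusters 8 (0.207 to 2.93) and 0 (0 to 2.73).

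One control cluster stood apart from the others. Cluster 14 (229 control cells and 0 JPI-289 cells) was rich in the nuclear RNAs Malat1 and Neat1, at 155618 and 17614 CPM. In it Hnf4g reached 69.8 CPM, whereas the other control clusters held between 5.33 and 8.71 CPM, and Esrrg reached 117 CPM against 17.4 to 24.4 CPM. Pax2 (72.4 CPM) and Pax8 (261 CPM) were also higher there than in any other PT-like cluster. Of the 98 control UMIs of Hnf4g in PT-like cells, 53 came from cluster 14.

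A cluster made mostly of JPI-289 cells, cluster 13, had Neat1 and Malat1 among its leading genes. It held 13 control and 252 JPI-289 cells and had a PT score below the limit for a name, so it is not among the PT-like cells. There Pax8 stood at 366 CPM and Maf at 186 CPM (157 to 218). That level of Maf lay above those of control clusters 2 (113 CPM) and 18 (115 CPM). With cluster 13 counted, Maf would therefore not keep its direction in every pair of clusters. Hnf4a stood at 17.1 CPM, with 14 UMIs, and Esrrg at 7.33 CPM. With clusters rich in nuclear RNA left out (a setting added once the clusters were known), Hnf4g had 45 and 5 UMIs in PT-like cells and a ratio of -3.04 (-4.86 to -1.84), whose interval overlaps that of Hnf4a. The ratio of Esrrg was then -2.67 (-3.36 to -2.08) and that of Pax8 1.28 (1.12 to 1.45).

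**Figure D2:**
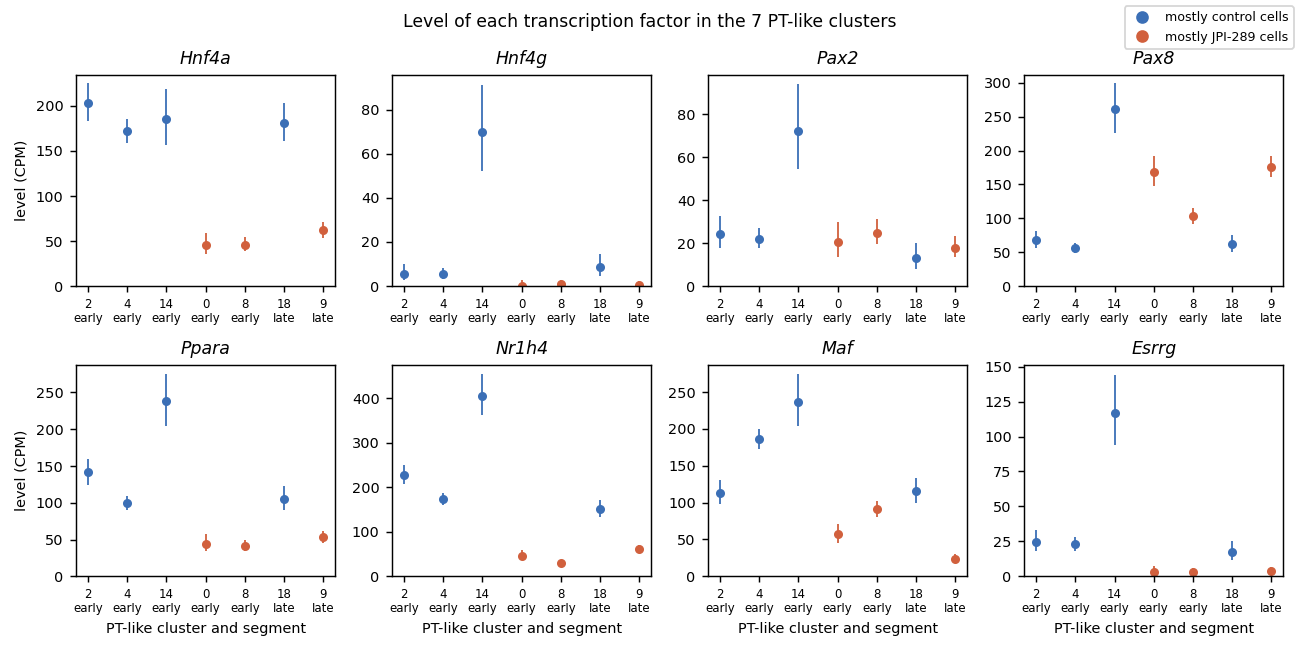
Level of each factor in CPM in the 7 PT-like clusters, with 95% counting intervals, coloured by the library that gave most of the cells. For Hnf4a the 4 control clusters lie between 172 and 203 and the 3 JPI-289 clusters between 45.9 and 62.0, while for each of the other genes control cluster 14, rich in nuclear RNA, is highest.

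Counted as the share of cells with at least 1 UMI, the same order appeared. For this, 1000 UMIs were drawn from each PT-like cell, and shallower cells (452 control, 510 JPI-289) were set aside. Hnf4a was then seen in 15.4% of control cells (13.5 to 17.5%) and 5.08% of JPI-289 cells (3.88 to 6.52%). The full counts gave 40.8% and 15.6%. In neutrophil-like cells, which should lack Hnf4a and had median depths of 1973 and 2034 UMIs, the thinned shares were 2.82% and 0.516%.

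Pax8 was seen in 8.64% (7.19 to 10.3%) of thinned control and 14.0% (12.1 to 16.2%) of thinned JPI-289 cells of the PT, and the full counts gave 23.6% and 32.5%. Its thinned share in neutrophil-like cells was 2.26% and 2.07%. Nr1h4 was seen in 18.3% and 4.91% of thinned PT-like cells and Esrrg in 3.65% and 0.175%, the latter resting on 2 JPI-289 cells. A factor seen in few thinned cells need not be absent from the others at this depth.

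Across cell types, Hnf4a, Ppara, Nr1h4 and Maf had their highest level in PT-like cells of both libraries, among the 10 classes with at least 50 cells per library. The label of a nephron factor thus held for these genes as far as PT-like cells go, with Maf also high in control macrophage-like cells (104 CPM, interval 86.9 to 124). Hnf4a in control cells ranked PT-like, neutrophil-like (32.2 CPM), stroma-like (25.5), DCT/CNT-like (21.0) and EC-like (19.3), and the intervals of all but PT-like overlapped. In EC-like cells, the free RNA of broken cells alone would give 16.5 CPM of Hnf4a, close to the level there. The 98 control UMIs of Hnf4g in PT-like cells compare with 1 UMI each in thin limb-like, TAL-like and EC-like cells. After JPI-289, Hnf4g had 5 UMIs in PT-like cells (0.681 CPM) and 0 in the other classes compared, where a count of 0 allows levels of up to 1.75 CPM or more, so its order among classes could not be set.

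Nr1h4 had a second site in the control kidney. In cells like the thick ascending limb (TAL), the salt-reabsorbing segment marked by Umod and Slc12a1, it stood at 81.3 CPM (63.5 to 103), of which free RNA would give 5.20 CPM. Stroma-like cells stood at 26.6 CPM (17.0 to 39.5), with an interval apart from it, and red blood cell-like cells at 28.2 CPM on 4 UMIs, with a wide interval (7.69 to 72.2) that overlapped. Ppara had no such second class, since DCT/CNT-like cells, next in order, stood at 21.0 CPM (10.9 to 36.7) with 12 UMIs.

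Pax8, Pax2 and Esrrg were spread along the tubule. Pax8 was highest in thin limb-like cells, at 451 CPM (400 to 507) in the control and 364 CPM (311 to 423) after JPI-289. In the control it then ran TAL-like (129), principal-like (95.01), PT-like (78.6) and DCT/CNT-like (66.5 CPM). The intervals of thin limb-like and TAL-like cells were apart, and those of each later neighbouring pair overlapped. After JPI-289 the order changed, with principal-like cells (208 CPM) and PT-like cells (146) above TAL-like cells (110). Pax2 was highest in control thin limb-like (89.5) and principal-like cells (85.6 CPM), whose intervals overlapped, with TAL-like cells next at 51.5 CPM. Esrrg in the control was level across TAL-like (32.1), PT-like (30.9) and DCT/CNT-like cells (28.0 CPM), with overlapping intervals.

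**Figure D3:**
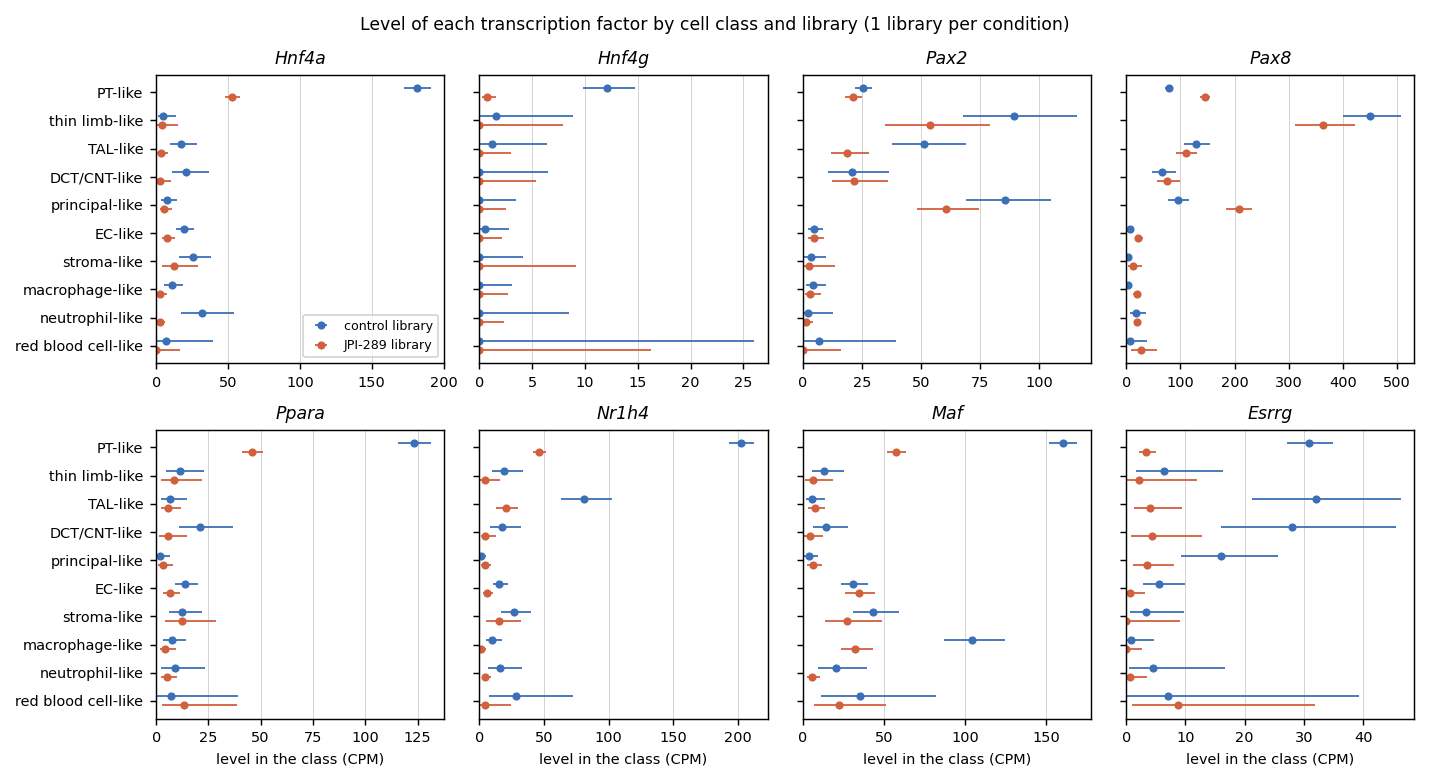
Level of each factor in CPM, UMIs per 1000000 UMIs of the class, for 10 cell classes and both libraries, with 95% counting intervals and an axis from 0 in each panel. Hnf4a stands at 182 and 52.7 in PT-like cells, while Pax8 peaks in thin limb-like cells at 451 and 364.

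In TAL-like cells (282 control and 414 JPI-289 cells), 4 of the 8 factors had at least 20 UMIs and 3 of these were at least 2-fold lower after JPI-289, against 10.6% of all 7786 genes measured there. None was at least 2-fold higher, against 8.49% of all genes. Nr1h4 went from 71 to 25 UMIs, or from 81.3 to 20.3 CPM, with a log2 ratio of -1.98 (-2.72 to -1.32). Esrrg went from 28 to 5 UMIs, with a ratio of -2.87 (-4.71 to -1.59), and Pax2 from 45 to 23 UMIs, with a ratio of -1.45 (-2.25 to -0.70). Pax8 had 113 and 135 UMIs, and its ratio of -0.24 (-0.61 to 0.14) reached over 0. The markers of the neighbouring distal segment were not even in this class: the summed DCT/CNT list was 9073 CPM in the control and 1289 CPM in the JPI-289 library, although 1 of its 4 measured markers was at least 2-fold lower. Of the PT markers there, 6 of 9 measured were at least 2-fold lower and 1 higher (sum 1374 and 532 CPM). The 3 measured neutrophil markers were all higher (sum 25.2 and 96.9 CPM), and the red blood cell markers summed to 1340 and 96.9 CPM. Of the class's own TAL markers, 3 of 6 measured were at least 2-fold lower and 0 higher, although their sum was 6723 and 8999 CPM. The part of all these markers in the ratios of the factors was not tested.

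In principal cell-like cells of the collecting duct, marked by the water channel Aqp2, 3 factors had at least 20 UMIs. Of these, 1 was at least 2-fold lower (13.9% of all 8711 genes measured there) and 1 at least 2-fold higher (7.77% of all genes). Pax8 was the higher one, with 101 UMIs in the control and 302 after JPI-289. It went from 95.01 to 208 CPM, with a log2 ratio of 1.12 (0.80 to 1.47). Esrrg was the lower one, at 17 and 5 UMIs, with a ratio of -2.12 (-4.01 to -0.72), which became -0.16 when the 8 genes were kept for clustering. Pax2 went from 85.6 to 60.6 CPM, with a ratio of -0.50 (-0.94 to -0.061).

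The principal-like cells were much deeper in the control than after JPI-289, with a median of 4501.5 against 1563.5 UMIs, over 116 and 430 cells. Thinned to 1000 UMIs, Pax8 was seen in 15.4% (9.06 to 23.8%) and 24.1% (20.004 to 28.5%) of them, whereas the full counts gave 46.6% and 42.6%. The class's own markers moved too: 3 of 7 principal markers were at least 2-fold lower and 0 higher, with sums of 11435 and 6896 CPM. Of 7 measured DCT/CNT markers, 4 were at least 2-fold lower and 0 higher. The injury markers summed to 27705 and 37264 CPM. Other cells' markers also moved, since the 7 neutrophil markers summed to 15.1 and 506 CPM and the 5 red blood cell markers to 24.5 and 984 CPM. The part of all these markers in the Pax8 ratio was not tested.

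In thin limb-like cells, where Pax8 was highest, its ratio had the opposite sign to that in PT-like cells. It had 282 UMIs in 60 control cells and 169 in 55 JPI-289 cells, with a log2 ratio of -0.31 (-0.59 to -0.029). Markers moved in this class too: 2 of 7 measured injury markers were at least 2-fold lower and 0 higher, with sums of 34505 and 17367 CPM. The PT markers summed to 795 and 230 CPM, and the class's own thin limb markers to 4020 and 4599 CPM. The part of these markers in the Pax8 ratio was not tested. In DCT/CNT-like cells Pax8 had 38 and 52 UMIs, with a ratio of 0.18 (-0.45 to 0.82). The higher Pax8 of the JPI-289 kidney was thus measured in PT-like and principal-like cells, while the intervals in TAL-like and DCT/CNT-like cells reached over 0. Whether the segments differ from each other in a replicated sense could not be tested with 1 mouse per condition.

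**Figure D4:**
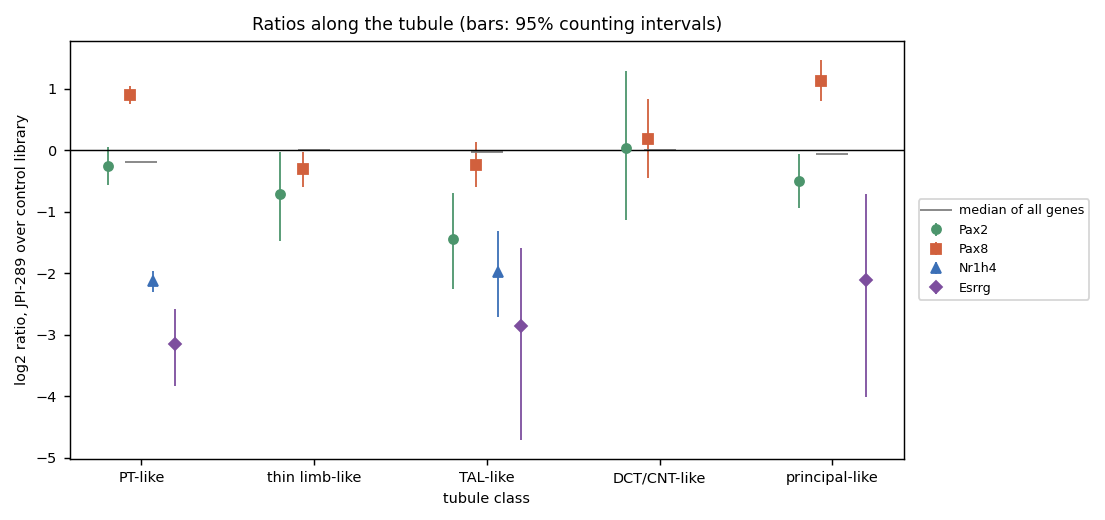
Log2 ratio, JPI-289 over control library, of Pax2, Pax8, Nr1h4 and Esrrg in 5 tubule classes, with 95% counting intervals, wherever a gene had at least 20 UMIs, and grey dashes at the median of all genes of the class. Pax8 lies at 0.89 in PT-like, -0.31 in thin limb-like and 1.12 in principal-like cells, and Esrrg lies below -2 in the 3 classes shown.

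Outside the tubule, Maf in macrophage-like cells was the clearest value. It had 125 UMIs in 201 control cells and 44 in 302 JPI-289 cells, at 104 and 32.3 CPM, with a log2 ratio of -1.68 (-2.22 to -1.18). Both macrophage-like clusters showed it: cluster 11, led by antigen presentation genes and C1qa, went from 111 to 36.6 CPM, and cluster 15, led by Fn1 and Arg1, from 98.5 to 29.7 CPM. In the same class, 9 of 11 macrophage markers were at least 2-fold lower and the other two at least 2-fold higher after JPI-289, and their sum went from 17986 to 6916 CPM, while the red blood cell markers summed to 60.1 and 1450 CPM. Their part was not tested. Over all EC-like cells Maf did not differ beyond its counting error, at 31.0 and 34.4 CPM, but its clusters went in different directions. Cluster 10 went from 8.08 (2.62 to 18.9) to 34.4 CPM (25.2 to 45.9), with intervals apart. Cluster 6 went from 51.2 to 24.2 CPM, with intervals that overlapped. Cluster 17, at 37.6 CPM in the control, held 187 control and 2 JPI-289 cells.

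Pax8 was also seen at low levels in cells that should lack it. In EC-like cells it stood at 7.62 CPM in the control and 22.1 after JPI-289, against 5.95 and 14.4 CPM that free RNA would give. In macrophage-like cells it had 4 and 26 UMIs, at 3.34 and 19.1 CPM, against 1.37 and 5.12 from free RNA. Hnf4a, Ppara and Nr1h4 in EC-like cells were lower after JPI-289, with ratios between -1.34 and -1.06, and their control levels of 13.7 to 19.3 CPM were likewise close to the 10.1 to 16.5 CPM of free RNA.

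Over all barcodes, with no cell called or named, the ratios ran in nearly the order of PT-like cells, with Ppara and Maf changing places. Hnf4g stood at -4.03, Esrrg at -2.87, Nr1h4 at -2.13, Hnf4a at -2.12, Ppara at -1.53, Maf at -1.14, Pax2 at -0.30 and Pax8 at 0.89. These sums depend on how many cells of each type were caught. The antisense gene Hnf4aos, which overlaps the 5′ part of Hnf4a, had 681 UMIs in the control and 42 after JPI-289 over all barcodes, a log2 ratio of -3.89 (-4.40 to -3.46), further down than Hnf4a itself.

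Lists of related genes were then read in PT-like cells, each beside the median of -0.20 over all genes. The lists too were chosen with earlier results of these data known, so their shares only describe them. Of all 11308 genes there, 23.7% were at least 2-fold lower and 9.11% at least 2-fold higher. Of 15 genes known as HNF4A targets, 10 (66.7%) were at least 2-fold lower and 0 higher, with a median log2 ratio of -1.75. Gluconeogenesis and glucose export led: G6pc, which frees glucose from glucose phosphate, had 1845 UMIs in the control and 23 after JPI-289 (ratio -6.15), and Slc2a2, the basolateral glucose transporter, had 837 and 25 UMIs (-4.89). Pck1, the first committed enzyme of gluconeogenesis, was at -2.77 and the organic anion transporter Slc22a6 at -2.07. Ttr (0.12) and the related transporter Slc22a8 (0.27) were not lower. Of the list, 5 genes had also served as PT markers, and of the other 10, 6 were at least 2-fold lower with a median of -1.67. Among the 13 PT markers, 9 were at least 2-fold lower and 0 higher, so a share of this size was not particular to the HNF4A list.

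The 4 measured of 9 NR1H4 targets were all at least 2-fold lower, against 23.7% of all genes, with a median of -2.26. Abcc2, an efflux pump for conjugated organic anions, went from 490 to 94.3 CPM (-2.38). The subunits of the bile acid exporter OST, Slc51a and Slc51b, were at -2.14 and -1.79, and Apoc2, an activator of lipoprotein lipase, at -3.58 on 59 and 4 UMIs.

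PPARA targets were mixed. Of 30 measured, 9 were at least 2-fold lower and 2 at least 2-fold higher, with a median of -0.43. The lower share of 30% was close to the 23.7% of all genes. Among the lower ones were the fatty acid hydroxylase Cyp4a14 (-2.56) and the thioesterase Acot3 (-2.59). The 2 higher ones were Plin2, a lipid droplet coat protein that went from 552 to 6592 CPM (3.58), and Pdk4, which blocks pyruvate oxidation, from 151 to 1138 CPM (2.91). Acaa1b, a peroxisomal thiolase, was also above 0 (0.69). Plin2 and Pdk4 thus ran against Ppara itself, which was at -1.42.

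Genes of oxidative metabolism listed as targets of estrogen-related receptors had a median of -0.63 over 15 genes, with 2 at least 2-fold lower (13.3%, against 23.7% of all genes) and 1 higher. The 2 lower ones were regulators themselves, namely Esrra (-2.04) and the coactivator Ppargc1a (-2.53), and the higher one was Pdk4. The respiratory chain and ATP synthase genes with most UMIs were near the median of all genes, with Cox5a at -0.14, Atp5a1 at -0.22 and Atp5b at 0.12. Only 1 of 7 PAX2 and PAX8 downstream genes was measured, Lhx1, at 0.38 (-0.038 to 0.79).

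Partners and cofactors of the nuclear receptors had a median of -0.34, and 7 of 26 measured (33 listed) were at least 2-fold lower and 0 higher. That share, 26.9%, was near the 23.7% of all genes. Besides Ppargc1a, the xenobiotic receptor Nr1i2 (-2.24) and the vitamin D receptor Vdr (-1.61) were lower. Corepressor Ncor1 (-0.29) and the orphan receptor Nr2f6 (-0.56) were within 2-fold, as were the histone acetylase Crebbp (0.83) and the dimer partner Rxrb (0.86), both above 0. Among the other Maf family, Bach2 (-1.04) was lower, while the small Maf proteins Maff (1.27) and Mafk (1.05) were higher and Mafg (0.28) and Bach1 (0.23) were within 2-fold.

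Of 19 measured (33 listed) other nephron transcription factors, 9 were at least 2-fold lower and 3 at least 2-fold higher, with a median of -0.91. The lower share of 47.4% compares with 23.7% of all genes, and 9.11% of all genes were at least 2-fold higher. Tfcp2l1 went from 202 to 43.2 CPM (-2.23) and Elf3 from 145 to 24 UMIs (-2.42). On the other side stood Sox9, a factor of injured and regrowing tubule and itself one of the injury markers, at 47.0 and 117 CPM (1.31), and Sox4, a factor of the developing nephron, at 32.1 and 124 CPM (1.94). The other higher gene was Hoxb7 (1.25), a homeobox factor of the ureteric bud. The same list had a median of -1.21 in TAL-like cells (10 of 19 at least 2-fold lower) and of -0.90 in principal-like cells (9 of 21), against medians of -0.03 and -0.07 over all genes there. The shares at least 2-fold lower were 52.6% and 42.9%, against 10.6% and 13.9% of all genes measured there.

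**Figure D5:**
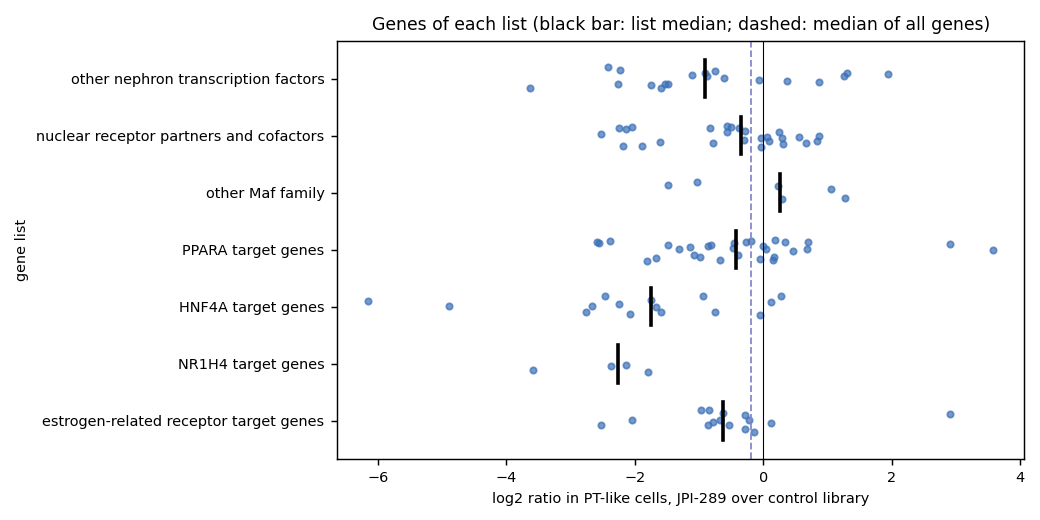
Log2 ratio in PT-like cells, JPI-289 over control library, of each measured gene (points) in 7 gene lists, with the list median as a black bar and the median of all genes, -0.20, as a dashed line. The medians of the HNF4A and NR1H4 targets lie at -1.75 and -2.26, and Plin2 and Pdk4 lie furthest to the right.

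Finally, the pattern of each factor was set beside that of 9964 genes over 20 profiles, which were 10 cell classes in 2 libraries, by the correlation of log2 levels. The profiles of a library share its depth and free RNA, so the values only describe likeness. Hnf4a was most like Cyp4a14 (r = 0.94), Isoc2a (0.90) and Folh1 (0.89), and Ppara was most like Abcc2 (0.91), Gpx3 (0.90) and Gstm5 (0.90). Nr1h4 was most like Enpp2 (0.88), Adra2b (0.86) and Pdzd3 (0.86). Esrrg was most like Mfsd4b1 (0.86), Pdzk1ip1 (0.86) and Aifm1 (0.85).

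Hnf4g was most like Hnf4aos (0.88), Slc13a2 (0.84) and Myo15b (0.84), and Maf was most like Cd36 (0.90), Gm4737 (0.82) and Lipa (0.81). Pax2 was closest to the developmental genes Emx2 (0.92) and Hoxb9 (0.92), with Aktip at 0.91. Pax8 was closest to Cobl (0.92), the keratin Krt8 (0.91) and Grb7 (0.90). Among the factors themselves, Pax2 and Pax8 formed the closest pair (r = 0.80), followed by Ppara with Nr1h4 (0.75) and Hnf4a with Nr1h4 (0.74), while Pax8 with Hnf4a was at -0.065.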

How the data were processed

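For 1 control and 1 JPI-289 library (Chromium 5′ kit v2), the deposited matrices hold unnormalized UMI counts of all barcodes, made with Cell Ranger 5.0.1 on mm10 according to the submitters' processing notes; the matrix header names version 4. The libraries held 38328760 and 35548396 UMIs. The 8 genes and the gene lists were chosen with earlier results of these data known.

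Cells were called in 2 steps, by total UMIs and by comparison of barcodes of at least 500 UMIs with empty droplets (10000 simulations, false discovery rate 0.01), and those over 50% mitochondrial UMIs were left out (545 and 396). Counts of both libraries together were log-transformed and clustered, without batch correction, in scanpy 1.11.5 (2000 variable genes without the 8 factors, 30 components, 20 neighbours, Leiden resolution 1). Clusters were named for the highest-scoring marker list of a main class (the early, late and injured PT lists named no class) at a score of at least 0.75 and 3 markers detected, unless another list held more of the 10 leading genes; these limits were set after the clusters were seen. PT-like clusters were then called early or late by the higher of those lists, whatever their injury score: the cluster with most JPI-289 PT-like cells scored 0.996 for PT and 1.291 for injured PT. Clusters led by platelet or urothelium markers (39 and 18 cells) were left unnamed. Fibroblast-like and mural-like cells were joined as stroma-like. Scrublet marked 0 and 1 cells and did not work, so doublets stayed in. The libraries shared 23 cell barcodes, 0.613% and 0.456% of their cells.

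UMIs were summed per class and library and given per 1000000 UMIs (CPM), which does not correct for gene length, so levels are compared for 1 gene at a time. Log2 ratios had 0.5 UMIs added, and classes with under 50 cells in a library were given no ratio. Intervals were exact Poisson, exact conditional binomial and Clopper-Pearson intervals at 95%, for counting error only. Cells are not replicates, so no p-value was computed. Free RNA was taken from barcodes under 100 UMIs. Genes were named by rule: the 8 factors, per list the 3 genes with most UMIs and the 2 with the largest ratio in each direction (at least 50 UMIs), and per factor the 3 most alike; cluster-leading genes, Hnf4aos, and list regulators outside the rule were added after their values were seen. A few genes named by the rule are not reported here. The ratio and interval steps were tested on simulated data. Alternatives covered calling, filters, doublets, clustering, naming, scaling, weighting, offset, free RNA, thinning to 500 UMIs and likeness. Python 3.11.15, numpy 2.4.6, scipy 1.17.1 and leidenalg 0.10.2 were used.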

Additional observations from a re-analysis of the deposited data

Results flagged for a closer look

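Pax8 in thin limb-like cells was lower in the JPI-289 library (log2 ratio -0.31, 282 against 169 UMIs), whereas in PT-like cells it was higher (0.89). It was picked out because the 2 cell classes moved in opposite directions under the same comparison, each with a counting interval that left out 0. The injury markers summed to 34505 and 17367 CPM in thin limb-like cells, and to 8673 and 13333 CPM in PT-like cells. Their part was not tested. The difference between the 2 classes was not tested either, since each condition had 1 library.

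Called cells with over 50% mitochondrial UMIs entered no comparison of cell classes, only the sums over all barcodes. In them Pax8 had 19 control and 41 JPI-289 UMIs, with a log2 ratio of 1.64 (0.84 to 2.52), and this was picked out as a value above the control in cells that had been left out. Hnf4a in the same cells had 85 and 10 UMIs, with a log2 ratio of -2.48.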

How the results depend on the processing

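The 6 factors that were at least 2-fold lower in PT-like cells stayed so under all 17 alternatives, with log2 ratios between -2.03 and -1.55 for Hnf4a, -5.05 and -2.96 for Hnf4g, -1.59 and -1.23 for Ppara, -2.19 and -1.79 for Nr1h4, -1.65 and -1.19 for Maf and -3.43 and -2.67 for Esrrg. The PT class itself was less steady. With each cell classed by its leading markers, it held 2629832 JPI-289 UMIs, against 7341050 in the main setting. The control held 7802778 against 8119851. Pax8 in PT-like cells ranged from 0.79 to 1.28. It made the count of factors at least 2-fold higher 1, in place of 0, with only the first calling step, with each library clustered alone, with each cell classed by its leading markers, with ratios centred on the median of all genes and, both chosen after seeing the data, with clusters named from a score of 0.5 and with clusters rich in nuclear RNA left out. Pax8 in principal-like cells ranged from 0.75 to 1.22 and was at least 2-fold higher in 14 of 17 alternatives. The following low values in EC-like cells changed sign: Hnf4a was at 0.46 with free RNA subtracted, and Ppara was at 0.073 with each library clustered alone and at 0.012 with each cell given equal weight. The cause was not tested. Pax8 in macrophage-like cells was at 0.14 with cells classed by leading markers. Likeness was less steady, since with Spearman correlation between 0 and 2 of the 3 genes named per factor stayed. No paired analysis was possible because each condition had 1 library. Depth limits Hnf4g and Esrrg after JPI-289 most, at 5 and 25 UMIs in PT-like cells.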

Other observations

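Some values belong to cell classes with under 50 cells in a library and entered no ratio. In intercalated-like cells of the collecting duct (47 control and 62 JPI-289 cells), Pax8 had 16 UMIs at 77.8 CPM (44.4 to 126) in the control and 31 UMIs at 169 CPM (115 to 240) after JPI-289, with intervals that overlapped. Esrrg there had 7 and 4 UMIs, at 34.0 and 21.8 CPM. In lymphocyte-like cells, Maf had 10 UMIs in 98 JPI-289 cells, at 43.7 CPM (20.9 to 80.3), and the control held 6 such cells with 0 UMIs of Maf. In podocyte-like cells Nr1h4 had 4 UMIs in 39 control cells, at 90.7 CPM (24.7 to 232), and 1 UMI in 63 JPI-289 cells, at 11.5 CPM (0.292 to 64.3). The wide control interval overlapped that of control TAL-like cells (63.5 to 103).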
